A study of Mus musculus with 8 samples.

Results

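The distal end of mouse chromosome 11 was described from accessible regions that start at or beyond 110 Mb on the chromosome, 684 of the 57417 consensus regions of an ATAC-seq series, and was set beside the 1665 regions that start at 70 to 110 Mb, called the flank here. These members were chosen because they had higher counts in the eribulin-resistant line than in the parental line, so every value of that contrast below, counts of regions or loci called by edgeR included, only describes them and is no test. ATAC-seq counts sequenced DNA that a transposase cut and tagged in open chromatin. The 8 libraries came from mouse PB3 breast cancer cells, typed Er-/Pr-/Her2- in the labels. There were 2 libraries each of PB3-Parental, which was untreated, of PB3-ERI-R, selected with eribulin (Erubilin in the labels), of PB3-PAC-R, selected with paclitaxel, and of PB3-VIN-R, selected with vinorelbine. All 3 drugs act on microtubules, and the derivatives were selected at 300, 500 and 800 nM. The protocol speaks of resistant clones, and whether each derivative is a single clone is not stated. Nothing in the labels says that the 2 libraries of a line came from separate cultures, and the spread between them may be technical. The question of the series is whether chromatin reprogramming by treatment can turn mesenchymal tumour cells epithelial.

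The distal end of chromosome 11 is gene-dense apart from the large gene desert around Sox9, and it carries genes of cell division (Birc5, Tk1), cell polarity (Llgl2) and fatty acid synthesis (Fasn). Its gene content is shared with the human chromosome arm that holds SOX9, BIRC5 and FASN, an arm that breast tumours often gain. Sox9 encodes a transcription factor of mammary progenitor cells and is known to be controlled by enhancers that lie far from the gene. The number of ATAC-seq reads at a site depends on how open the site is and on how many copies of it the cells hold, and counts alone cannot tell these apart. DNA copy number was not analysed here.

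The promoters of 4 genes are shown because they sit at different places relative to the rise described below: Birc5 in its middle, Pycr1 at the last shared peak inside it, Aspscr1 at the first shared peak beyond it, and Fasn farther out. Sequences are those of RefSeq on GRCm38.p6, 5′ to 3′ on the strand of the gene. They span chr11:117848987-117849286 (plus strand) for Birc5, chr11:120643699-120643998 (minus strand) for Pycr1, chr11:120672723-120673022 (plus strand) for Aspscr1 and chr11:120824498-120824797 (minus strand) for Fasn. Capitals mark the GC box GGGCGG and the CCAAT box CCAAT on either strand.
Birc5: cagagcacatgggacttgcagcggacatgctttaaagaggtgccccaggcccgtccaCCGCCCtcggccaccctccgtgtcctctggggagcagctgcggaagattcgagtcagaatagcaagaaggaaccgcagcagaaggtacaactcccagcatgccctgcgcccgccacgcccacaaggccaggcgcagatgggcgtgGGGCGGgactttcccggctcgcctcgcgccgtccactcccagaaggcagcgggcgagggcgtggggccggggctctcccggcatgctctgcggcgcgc
Pycr1: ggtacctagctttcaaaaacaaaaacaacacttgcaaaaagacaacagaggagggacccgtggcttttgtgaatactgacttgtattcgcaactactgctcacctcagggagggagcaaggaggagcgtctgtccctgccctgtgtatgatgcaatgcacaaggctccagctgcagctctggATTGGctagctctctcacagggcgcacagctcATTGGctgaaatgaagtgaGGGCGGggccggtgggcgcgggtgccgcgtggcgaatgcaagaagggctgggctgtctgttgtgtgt
Aspscr1: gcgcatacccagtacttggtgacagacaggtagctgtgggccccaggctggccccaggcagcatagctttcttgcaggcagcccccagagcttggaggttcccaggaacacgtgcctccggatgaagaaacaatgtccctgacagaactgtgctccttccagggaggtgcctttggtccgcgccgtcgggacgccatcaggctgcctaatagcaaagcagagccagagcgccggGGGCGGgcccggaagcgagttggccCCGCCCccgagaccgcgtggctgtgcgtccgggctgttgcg
Fasn: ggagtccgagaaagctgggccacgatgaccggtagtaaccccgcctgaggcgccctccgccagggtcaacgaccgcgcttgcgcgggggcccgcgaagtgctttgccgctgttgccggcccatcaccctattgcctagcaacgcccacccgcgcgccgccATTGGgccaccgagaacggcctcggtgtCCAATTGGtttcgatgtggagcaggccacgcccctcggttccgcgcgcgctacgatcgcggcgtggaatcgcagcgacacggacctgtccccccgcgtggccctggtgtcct
Birc5 held 2 GC boxes and no CCAAT box, Pycr1 held 1 and 2, Aspscr1 held 2 and 0, and Fasn held 0 and 3, of which 2 overlap on opposite strands. Of 32851 RefSeq promoters of this length, 35.7% held the GC box and 37.4% the CCAAT box. The other motifs searched on both strands were TATAAA, the cell cycle element TTTGAA and the AP-1 site TGACTCA, held by 13.6%, 17.9% and 5.20% of promoters. TTTGAA was found in Pycr1 and not in the other 3, and neither TATAAA nor TGACTCA was found in any of the 4. These matches describe the letters of the windows and do not show binding.

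Total counts ran from 10521964 to 24052237 per library over all regions, and from 163204 to 321568 over the distal segment. Replicate libraries of each line differed by more than counting error. Across the genome PB3-ERI-R was the outlying line, with 35.4% of the 57415 tested regions called higher and 37.6% called lower than in PB3-Parental. Accessibility was used to check the labels. Summed CPM, counts scaled by library size, at the Epcam locus, an epithelial adhesion gene, were 36.0 and 48.2 in PB3-Parental against 175 and 167 in PB3-ERI-R. At Zeb1, a mesenchymal transcription factor, they were 126 and 128 against 62.3 and 59.7. The PB3-ERI-R log2 difference was 1.01 ± 0.16 at the epithelial gene Cdh1 and -0.65 ± 0.13 at the mesenchymal gene Vim. Not all markers moved in this way. The difference was 0.19 ± 0.28 at Krt8, -0.23 ± 0.23 at Krt18 and 0.00 ± 0.12 at Fn1, none of them called. These loci had accessible regions in all 8 libraries, as did Esr1 and Erbb2 of the 3 receptors, while no region was assigned to Pgr. Of 4 markers of other cell types, Ptprc, Pecam1 and Adipoq had regions in every library and Lyz2 had none assigned. Ptprc, a leukocyte gene, stood at 30.3 to 62.2 CPM in the other 6 libraries and at 6.26 and 7.26 in PB3-ERI-R. Their part in the results below was not tested.

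The distal segment held far more of the counts in PB3-ERI-R than in any other line. The ratio of its summed counts to those of the flank was 0.412 and 0.394 in the 2 PB3-Parental libraries, 0.833 and 0.806 in PB3-ERI-R, 0.406 and 0.393 in PB3-PAC-R, and 0.413 and 0.399 in PB3-VIN-R. The PB3-ERI-R libraries stood far above the rest, and the other 3 lines overlapped. As a share of all counts, the segment held 1.16% to 1.34% in those 6 libraries and 2.37% and 2.28% in PB3-ERI-R. The flank held 2.95% to 3.24% in the 6 libraries and 2.84% and 2.83% in PB3-ERI-R, slightly below all of them. The ratio did not rest on sites that opened in PB3-ERI-R alone. Over regions that were peaks in all 4 lines, it was 0.764 and 0.743 in PB3-ERI-R and 0.420 to 0.444 in the other libraries.

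**Figure D1:**
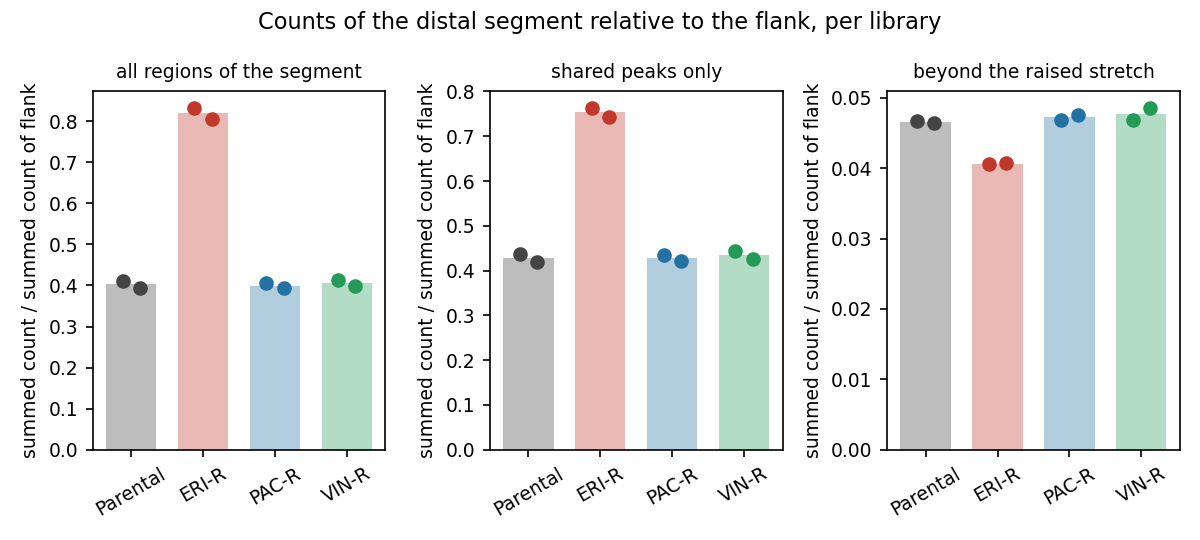
Summed counts of the distal segment divided by summed counts of the flank, for each library (points) with the line mean (bars), over all regions of the segment, over peaks shared by all 4 lines, and over the regions beyond the raised stretch. The 2 PB3-ERI-R libraries, at 0.833 and 0.806, stand above all others in the left panel, and at 0.0406 and 0.0407 below all others in the right panel.

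The median region of the segment was 1.26 higher in PB3-ERI-R than in PB3-Parental on the log2 scale, and that of the flank 0.14 higher, beside 0.07 over all regions. All 4 pairings of a PB3-ERI-R with a PB3-Parental library put the segment between 1.06 and 1.14 above the flank. In the segment 451 regions were called higher and 126 lower, beside 35.4% and 37.6% of all regions, in the same contrast that chose them. Regions that were peaks in all 4 lines moved in a narrower band, with a median of 1.22 and 225 of 253 above 0. Such shared peaks had medians of 0.31 in the flank and 0.37 over all regions, with 80.9% and 77% above 0. The 431 other regions of the segment spread from -2.61 at the 10th percentile to 5.68 at the 90th, with a median of 1.39. Over all regions these percentiles were -0.4 and 1.22 for shared peaks, and -4.01 and 4.73 for the others, whose median was -0.73. The split by shared peaks itself brings this difference in spread, which is not particular to the segment. Segment regions within 1 kb of a gene end had a median of 1.32 (149 of 169 above 0), and those farther away had a median of 1.22 (354 of 515 above 0). In the flank these medians were 0.28 (78% above 0) and -0.06 (48.5%), and over all regions 0.36 (75.7%) and -0.27 (45.1%). Without a library scaling factor all regions shifted by -0.35 at the median and the segment stood at 0.90 against -0.22 for the flank. Such a factor shifts all regions of a library nearly alike. The difference between segment and flank could therefore hardly change, and this is no check of it.

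Window by window, the rise was not uniform and did not fill the segment. In windows of 5 Mb, the summed accessibility at 110 to 115 Mb was 2243 and 2025 CPM in PB3-Parental, 5122 and 4620 in PB3-ERI-R, 2202 and 2017 in PB3-PAC-R, and 2415 and 2177 in PB3-VIN-R. At 115 to 120 Mb it was 7400 and 6570, 15602 and 15010, 7241 and 6831, and 7802 and 7060 CPM in the same order. The PB3-ERI-R libraries did not overlap the others in either window, with log2 differences of 1.19 ± 0.07 and 1.13 ± 0.07 (estimate ± SE). The last window, from 120 Mb, differed by 0.36 ± 0.05, close to the 0.32 ± 0.04 of the window at 105 to 110 Mb. Ranked by the median of their regions, the windows at 115 and 110 Mb came 16th and 20th of the 503 windows of the genome with at least 20 regions, of which 26 had a median of at least 1, so windows elsewhere moved as far. The window at 120 Mb came 105th.

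At 1 Mb the median of the regions was 1.02 at 109 to 110 Mb, just outside the segment, and -0.81 at 110 to 111 Mb, just inside it. It was 0.35 and 0.46 over the next 2 Mb, then between 1.20 and 1.81 in each window from 113 to 120 Mb, 0.74 at 120 to 121 Mb and -0.11 from 121 Mb to the end. Summed counts gave another picture of the first 3 Mb, with log2 differences of -0.39 ± 0.07, 0.59 ± 0.13 and 1.82 ± 0.07 in turn. The third Mb, which holds Sox9, went from 299 and 277 CPM to 1073 and 964 and so was high by its sum and not by its median region. These 3 Mb held 75 regions, of which 36 were above 0 and 39 had no gene within 50 kb, and their density was 25.7 regions per Mb against 57.9 over the whole segment. The 3 regions just below 110 Mb, near the lipid transporter gene Abca8b, had log2 differences of -1.83, 1.01 and 1.15, and the 3 just beyond it, near Abca8a, had 0.73, 1.42 and -0.81. The boundary at 110 Mb marks no step up in these data. By summed counts the log2 difference was 1.35 ± 0.06 in the Mb before it and -0.39 ± 0.07 in the Mb after it.

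**Figure D2:**
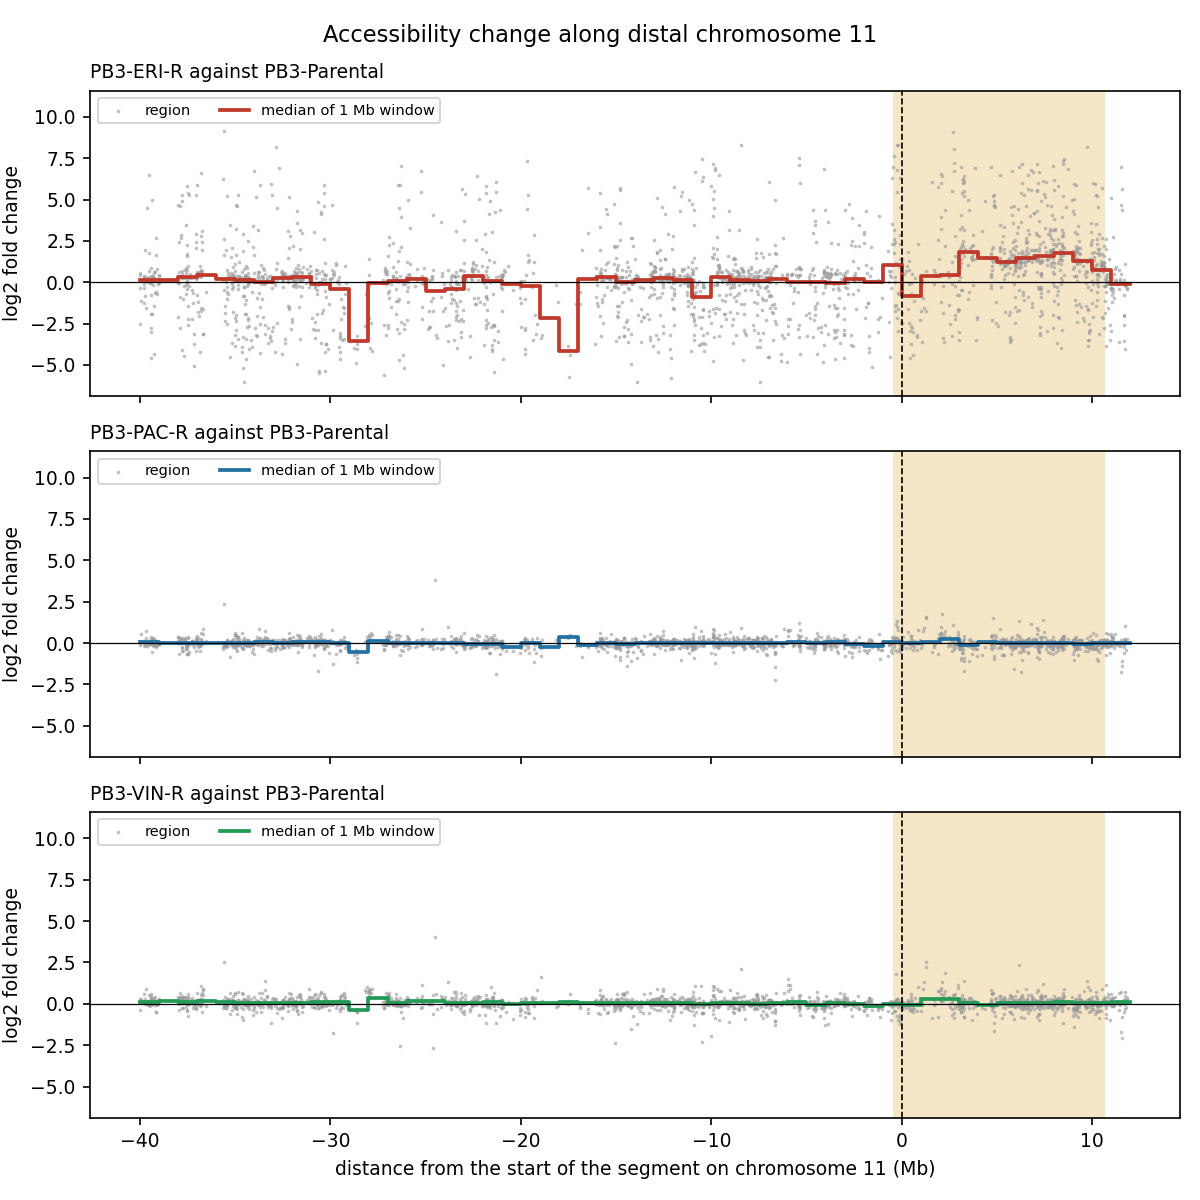
Log2 fold change of each region against PB3-Parental by distance in Mb from the start of the segment (dashed line), in 3 panels for PB3-ERI-R, PB3-PAC-R and PB3-VIN-R, with the median of each 1 Mb window as a step line and the raised stretch shaded. In PB3-ERI-R the medians lie between 1.20 and 1.81 from 3 to 10 Mb and fall to -0.11 in the last window. The deepest dips in the flank are windows of 4 to 8 regions.

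To place the edges, 2 change points were fitted by least absolute deviation to the log2 differences of the 871 chromosome 11 regions from 70 Mb onward that were peaks in all 4 lines. This was chosen after the values were seen. The raised stretch ran from 109609992, at Wipi1, a gene of autophagy, to 120643957, at the promoter of Pycr1, an enzyme of proline synthesis. Medians were 0.31 for the 611 regions before it, 1.30 for the 231 regions in it and -0.06 for the 29 regions after it. The shared peaks in the stretch were thus 0.99 above those before it on the log2 scale. Within it the 25th and 75th percentiles of the shared peaks were 0.92 and 1.67, and 217 of 231 were above 0. The left edge was not firm. In 2 of the 4 pairings of libraries it fell at 111880134 instead, inside the gene-poor stretch. The right edge was the same in all 4 pairings and when peaks within 1 kb of a gene end were used alone.

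The right edge lies between the genes Pycr1 and Aspscr1. Notum lies between them, and its 2 regions, at -0.25 and 0.17 in PB3-ERI-R, were not called. At the Pycr1 promoter, raw counts were 603 and 500 in PB3-Parental, 758 and 548 in PB3-ERI-R, 544 and 511 in PB3-PAC-R, and 931 and 954 in PB3-VIN-R. At the Aspscr1 promoter, a gene of glucose transporter trafficking, they were 610 and 616, 333 and 330, 695 and 652, and 1032 and 1070. After scaling for depth, Pycr1 was 0.91 ± 0.15 higher and Aspscr1 at -0.21 ± 0.16 in PB3-ERI-R on the log2 scale. The promoter peak of Birc5 was 1.72 ± 0.14 higher and that of Fasn was at -0.11 ± 0.13. Summed over the 67 regions beyond the edge, the ratio to the flank was 0.0406 and 0.0407 in PB3-ERI-R and 0.0464 to 0.0486 in the other 6 libraries. In that terminal piece, of 1.18 Mb, the regions had a median of -0.10 with 29 of 67 above 0. The first Mb of the segment, which the fitted stretch includes, had 11 of 29 above 0.

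The raised stretch and the terminal piece also differed in what they held. The terminal piece had 29.8 protein-coding genes per Mb and the raised stretch 16.6. Peaks found in PB3-ERI-R alone made up 26.9% of the regions of the raised stretch, 13.4% of the terminal piece, 13.2% of the flank and 16.9% of all regions. Peaks found in every line but PB3-ERI-R made up 15.9%, 20.9%, 25.2% and 26.9%. Peaks of all 4 lines were 37.0% of the segment and 37.1% of the flank. In the deposited peak lists, called once per line, the segment held 398 PB3-Parental, 504 PB3-ERI-R, 423 PB3-PAC-R and 496 PB3-VIN-R peaks. Set against the flank, these were 0.348, 0.542, 0.352 and 0.357 peaks per flank peak. The fold enrichment that the authors' peak caller gave had a median of 14.5 for segment peaks and 17.5 for flank peaks in PB3-ERI-R, and of 19.3 for both in PB3-Parental. The authors' enrichment over local background was thus lower in the segment, where the counts in PB3-ERI-R were higher.

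Counts were also summed over the regions assigned to each gene, the nearest within 50 kb. These loci were fitted on their own with scaling factors of their own, so a locus value can differ from that of its regions. Birc5, a locus of 1 region, was at 1.72 among regions and 1.44 among loci. The segment held 178 loci with a median log2 difference of 0.97 in PB3-ERI-R against PB3-Parental, and 127 were called higher and 21 lower, beside 28% and 30.3% of all loci. The 586 flank loci had a median of -0.07, with 109 called higher and 158 lower. In the raised stretch 137 of 150 loci were above 0, and in the terminal piece 12 of 32 were.

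Loci of mitosis, DNA synthesis and chromatin were the most even group, with 13 of 14 called higher, none lower and a median of 1.21. Over all 150 loci of the raised stretch 124 were called higher and 10 lower, with a median of 1.04. The counts of this group and of the next 2 were near that share, so they do not set these functions apart. The Birc5 locus, which encodes the mitotic and anti-apoptotic protein survivin, was at 46.4 and 50.5 CPM in PB3-Parental, 137 and 125 in PB3-ERI-R, 50.2 and 55.6 in PB3-PAC-R, and 50.9 and 48.0 in PB3-VIN-R. The PB3-ERI-R libraries did not overlap the others, and the difference was 1.44 ± 0.11. Tk1, thymidine kinase, was at 89.2 and 91.0 CPM in PB3-Parental and at 328 and 281 in PB3-ERI-R. The Polycomb gene Cbx8 differed by 1.71 ± 0.12. The range in the group was narrow, from 0.61 for the nuclear pore gene Nup85 to 1.94 for Trim47. H3f3b, which encodes a replacement histone, was at 0.87 ± 0.11.

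Among epithelial adhesion, polarity and differentiation genes 13 of 15 loci were called higher and none lower, with a median of 1.23. The Sox9 locus was at 128 and 113 CPM in PB3-Parental, 647 and 542 in PB3-ERI-R, 123 and 105 in PB3-PAC-R, and 137 and 118 in PB3-VIN-R. Llgl2, a polarity gene of the Scribble group, was at 40.0 and 35.3, 206 and 180, 33.5 and 31.1, and 39.5 and 35.9 CPM in the same order. Both loci stood well above the median of the raised stretch, at 2.30 ± 0.14 and 2.36 ± 0.12. Zfp750, an epidermal differentiation factor, had the highest value of the group, 4.37 ± 0.37, although it lies in the terminal piece. Its single region went from 0.573 and 1.32 CPM to 22.4 and 16.5. Baiap2 and Slc9a3r1, 2 adaptors of the cell cortex, were at 1.23 and 1.78. The lowest was Card14, a scaffold of keratinocyte signalling, at 0.17.

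Of the loci of the cytoskeleton and its regulators, 10 of 11 were called higher and none lower, again with a median of 1.21. Septin9 was at 0.63, Cyth1 at 0.48 and Fscn2, an actin bundler of the retina and inner ear, at 2.65. Actg1, the gene of cytoplasmic gamma actin, was the exception at 0.02 ± 0.11. It was at 152 and 131 CPM in PB3-Parental and at 151 and 136 in PB3-ERI-R, so the 2 lines overlapped. Its 4 regions differed in direction, from -3.13 to 2.03. In metabolism, secretion and lysosome genes, 12 of 15 were called higher and 2 lower, with a median of 0.90. Mgat5b, a glycosyltransferase, was the highest at 2.29. The amino acid transporter gene Slc38a10 was at 1.26 and P4hb, a disulfide isomerase of the endoplasmic reticulum, at 0.62.

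The lower loci of that group lay beyond the right edge. Fasn was at 100 and 99.3 CPM in PB3-Parental and at 73.9 and 69.7 in PB3-ERI-R, a difference of -0.47 ± 0.09. Slc16a3, a lactate exporter, went from 15.3 and 13.2 CPM to 0.805 and 1.30 CPM, the lowest value of all listed loci of the segment at -3.77. PB3-PAC-R and PB3-VIN-R lay between, at 8.98 and 9.30 and at 7.67 and 6.62 CPM, and neither was called against PB3-Parental. Dcxr, also beyond the edge, was at -0.06.

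Growth factor, kinase and stress signalling genes were divided, with 5 of 14 called higher, 4 lower and a median of 0.12. Sphk1, a lipid kinase, was at 2.12, Mafg, a small Maf partner of stress factors, at 1.27 and Socs3, an inhibitor of cytokine signalling, at 1.03. Grb2, the adaptor between receptors and Ras, lies within the raised stretch and was at 155 ± 7.15 CPM in PB3-Parental and at 123 ± 15 in PB3-ERI-R (mean ± SD of 2 libraries each). That is a log2 difference of -0.34, and its 8 regions were split between 3 called higher and 5 called lower. Rptor, the mTORC1 scaffold, was at -0.33 and was split in the same way, with 7 of its 21 regions called higher and 10 lower. Map2k6, a stress kinase in the first Mb, was at 161 and 150 CPM against 34.8 and 43.9, or -1.98 ± 0.13. In the 3 groups with the highest medians no locus was called lower, and here 4 were. The groups also differ in position. Of this group Rac3 and Metrnl, for example, lie beyond the right edge, at 1.75 and -0.44. Whether function or position goes with the split was not tested.

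Channels, receptors and neural genes had 4 of 10 called higher and 3 lower (median 0.31), from -2.60 for Nptx1, a synaptic pentraxin, to 4.18 for Rbfox3, a neuronal splicing factor. Rbfox3 went from 8.88 and 9.69 CPM to 174 and 163. The potassium channel gene Kcnj2, in the gene-poor stretch, was at -0.70, and the transporter gene Abca5 at 0.95. Of 5 myeloid and immune cell loci 3 were called higher and 2 lower, with Cd300a at 4.28 and its relatives Cd300e and Cd300lb at -2.93 and -1.02. These 3 members of a receptor family, near each other within the raised stretch, thus had values in opposite directions. Rnf213, an interferon-induced gene, was at 0.59. Of the 14 comparison genes from 70 to 110 Mb 4 were called higher and 3 lower, with a median of -0.18. The highest was the basal keratin gene Krt14, which went from 13.3 and 9.23 CPM to 142 and 117, a log2 difference of 3.52 ± 0.22. Stat3, a transcription factor of cytokine signalling, was at 0.67, Brca1 at -0.15, Top2a at -0.27, Prkca at -0.20 and Axin2 at -0.75. Erbb2, the receptor gene of the Her2 label, was at 0.88 in this contrast. Among the comparison genes Prkar1a was at 2.01, and it lies to the right of the left change point.

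**Figure D3:**
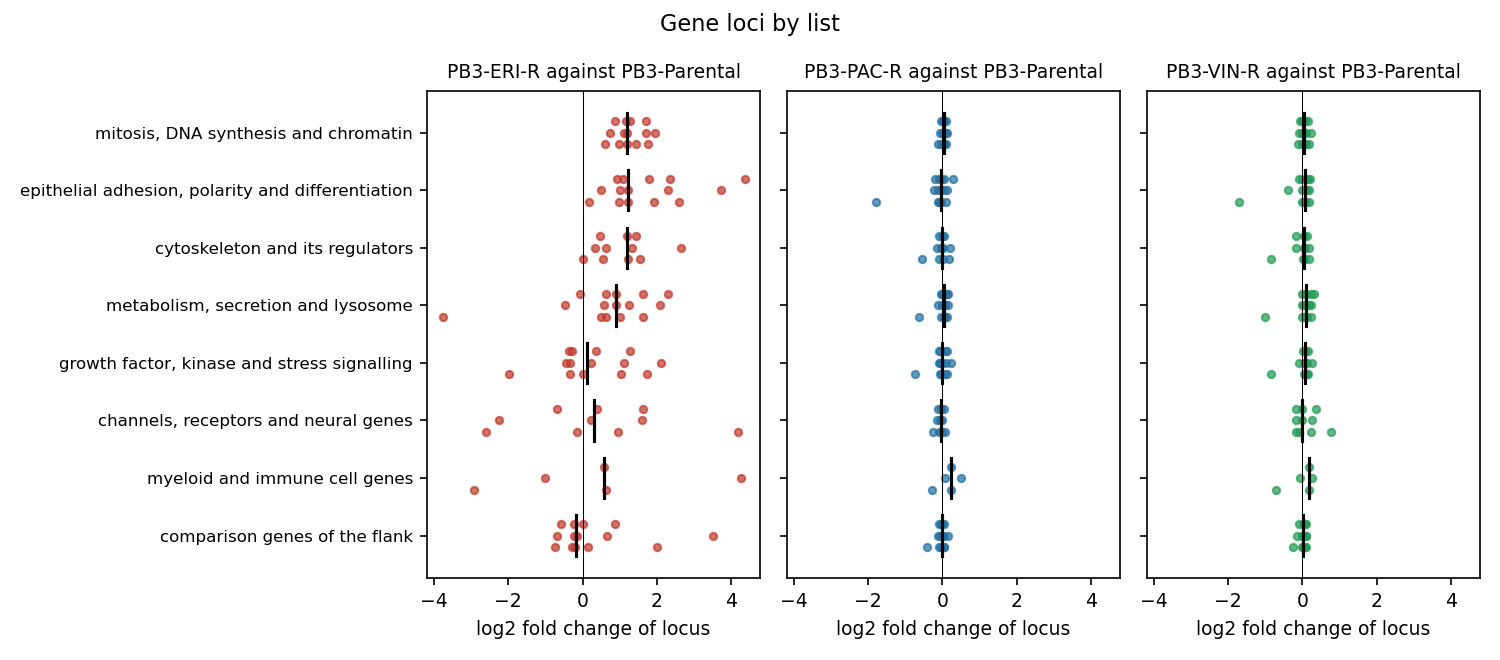
Log2 fold change of each gene locus against PB3-Parental (points) by list, with the list median (black bar), for the 3 resistant lines. In PB3-ERI-R the medians of the first 3 lists are 1.21, 1.23 and 1.21 and that of the comparison genes of the flank is -0.18.

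**Figure D4:**
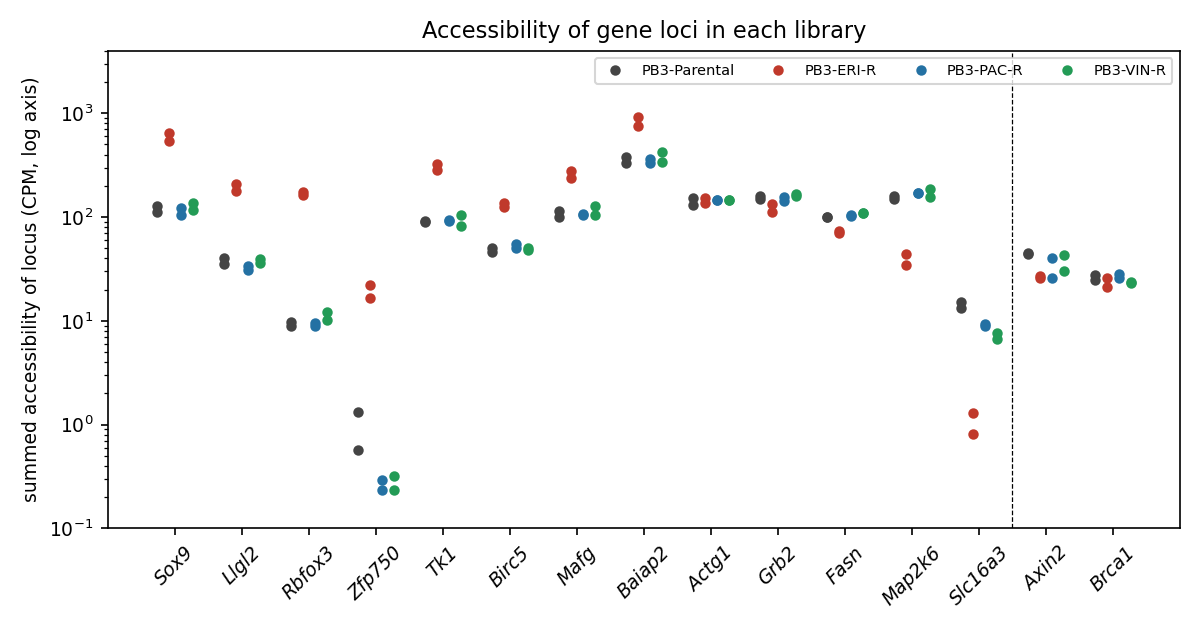
Summed accessibility in CPM (log axis) of 15 gene loci in each library, 2 points per line, with 2 loci of the flank to the right of the dashed line. Sox9 lies at 542 and 647 CPM in PB3-ERI-R and between 105 and 137 in the other lines, while the lines overlap at Actg1.

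The surroundings of Sox9 held the highest single values. Distances are from the low-coordinate end of the gene, at 112782210. Within 1 Mb on either side were 86 regions, of which 58 were called higher and 18 lower in PB3-ERI-R, with a median of 1.78. Over the whole segment 65.9% were called higher and 18.4% lower, and over all regions 35.4% and 37.6%. A log2 difference of at least 4 was seen at 22 of them. The share at that limit over the segment or over all regions is not given here. The 90th percentile was 4.9 in the segment and 3.66 over all regions. The region at chr11:112711260-112712298, 70.4 kb away, had 7 and 5 raw counts in PB3-Parental, 2439 and 1805 in PB3-ERI-R, 11 and 14 in PB3-PAC-R, and 20 and 8 in PB3-VIN-R. Its log2 difference of 9.11 ± 0.28 was that highest value. A region at chr11:112732110-112732768 had 7 and 8, 825 and 582, 8 and 6, and 5 and 11 counts in the same order. Both were peaks in PB3-ERI-R alone. The region over the gene end itself was a peak in all 4 lines. There, the CPM was 34.4 and 33.7 in PB3-Parental and 102 and 102 in PB3-ERI-R, a difference of 1.59 ± 0.14, near that of other shared peaks.

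Not every region around Sox9 was higher. The Sox9 locus itself held 4 regions called higher and 2 called lower, from -2.23 to 7.19. Between 116 and 250 kb on the high-coordinate side 7 of 9 regions were below 0, with -3.46 and -3.03 at the last 2. From 275 kb onward 40 of 45 were above 0, through the neighbouring zinc transporter gene Slc39a11. Over the same 86 regions the log2 differences ran from -3.62 to 9.11 in PB3-ERI-R, from -1.66 to 1.73 in PB3-PAC-R and from -0.95 to 1.86 in PB3-VIN-R.

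**Figure D5:**
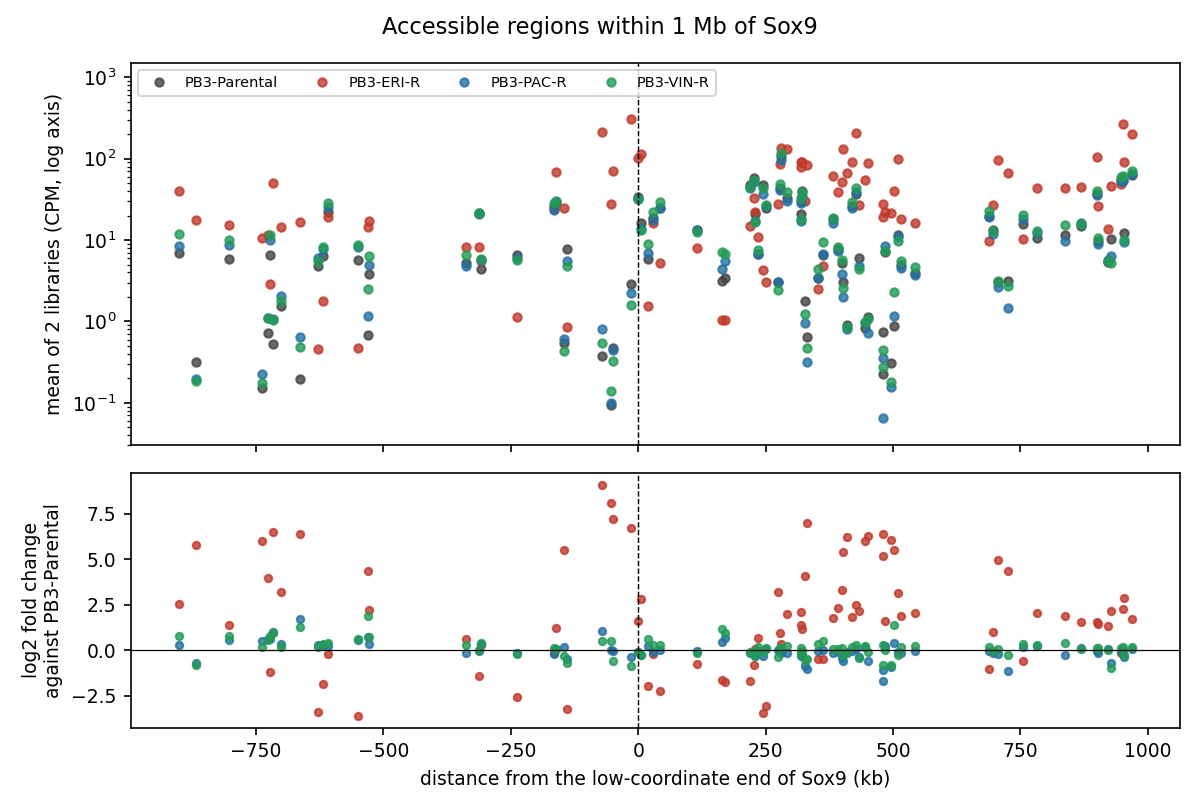
Mean CPM of the 2 libraries of each line (upper panel, log axis) and log2 fold change against PB3-Parental (lower panel) for the 86 regions within 1 Mb of Sox9, by distance in kb from the low-coordinate end of the gene. PB3-ERI-R has 22 regions at 4 or more on the log2 scale, up to 9.11, and both high and low values on either side of the gene.

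Away from Sox9 the highest of the named regions, taken 1 per gene, lay within genes. Regions without a gene within 50 kb, such as chr11:112728609-112728863 near Sox9 (8.07 ± 0.44), were little covered by that rule. A region in Rptor, chr11:119709208-119709787, had 1 and 4 counts in PB3-Parental and 535 and 426 in PB3-ERI-R (8.19), and one in Rbfox3, chr11:118540252-118540967, had 12 and 5 against 1108 and 778 (7.44). A region in C1qtnf1, a secreted C1q-domain protein, had 3 and 3 against 401 and 227 counts (7.31). These 3 regions within genes were peaks in PB3-ERI-R alone. The lowest regions were of the opposite kind, with few counts in PB3-ERI-R and more in every other library. Of the 5 lowest, those at 110605587 (-4.4) and at 121746962 near Metrnl (-4.06) were peaks in only 1 and 2 lines. One in Map2k6, chr11:110438856-110439684, had 348 and 411 counts in PB3-Parental, 6 and 14 in PB3-ERI-R, 361 and 380 in PB3-PAC-R, and 648 and 519 in PB3-VIN-R (-4.56). Timp2, an inhibitor of matrix proteases, had one at 9.74 kb that went from 899 and 673 counts to 28 and 34 (-3.97). Rptor also held one of the lowest, with 531 and 437 counts against 20 and 21 (-3.87), so the same gene held one of the highest and one of the lowest regions.

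PB3-PAC-R and PB3-VIN-R could be tested, since the members were not chosen on them. Both are compared with the same 2 PB3-Parental libraries. The rise was not detected in either line. The segment median was -0.02 in PB3-PAC-R (flank 0.01) and 0.06 in PB3-VIN-R (flank 0.06) on the log2 scale. The difference between segment and flank was -0.03 in PB3-PAC-R, and over the 4 pairings of libraries it ran from -0.08 to 0.05. In PB3-VIN-R it was 0.00, with a range of -0.10 to 0.05, where PB3-ERI-R had 1.12. None of the 3 windows of 5 Mb was called in either line by edgeR's quasi-likelihood test, beside 2.24% (PB3-PAC-R) and 3.17% (PB3-VIN-R) of all 536 windows, and none had an unadjusted p under 0.05. The window values were -0.02, 0.01 and 0.03 in PB3-PAC-R (Benjamini-Hochberg adjusted p = 0.998 for each) and 0.11, 0.09 and 0.10 in PB3-VIN-R (0.848, 0.950 and 0.781), with SEs of 0.05 to 0.07. None of the 12 windows of 1 Mb was called either, where 0.246% and 2.99% of 2441 were. In PB3-VIN-R 2 of them had an unadjusted p under 0.05, the second Mb of the segment (0.33 ± 0.12, adjusted p = 0.285) and the third (0.19 ± 0.07, adjusted p = 0.3). In PB3-PAC-R none did.

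No single region of the segment was called in PB3-PAC-R, where 0.0853% of all regions were called in either direction. By edgeR 42 of the 684 had an unadjusted p under 0.05, beside 3316 of all 57415. With DESeq2 the count of calls was also 0. In PB3-VIN-R 5 were called higher and 1 lower, beside 0.388% and 0.289% of all regions (0.678% in either direction). There 56 of the 684 had an unadjusted edgeR p under 0.05, beside 5667 of all 57415. No locus of the segment was called in either line, where 0.114% and 0.67% of all loci were. Of its 178 loci 4 and 9 had an unadjusted edgeR p under 0.05, beside 844 and 1064 of all 14936. Leaving out 1 library leaves its line with 1 and the fit with less power. It cannot show that a call rests on that library. The number of calls in PB3-VIN-R, 6 in the full fit, changed under it. None was left without PB3-Parental replicate 2 or without either PB3-VIN-R library, 2 were left without either PB3-ERI-R library, and 10 were called without PB3-Parental replicate 1.

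Of those 6 regions, 3 lay in the gene-poor stretch before Sox9. The clearest, chr11:111252473-111252893, had 24 and 10 raw counts in PB3-Parental, 15 and 19 in PB3-ERI-R, 47 and 51 in PB3-PAC-R, and 157 and 156 in PB3-VIN-R. Its log2 difference in PB3-VIN-R was 2.54 ± 0.35 (edgeR adjusted p = 0.00732), and in PB3-PAC-R, where it was not called, 1.57. The region at 111301386 had 27 and 11 counts in PB3-Parental and 111 and 173 in PB3-VIN-R (2.25 ± 0.43, edgeR adjusted p = 0.0311). That at 112250785 had 13 and 9 against 60 and 67 (1.86 ± 0.38, edgeR adjusted p = 0.0453). All 3 had both PB3-VIN-R libraries above both PB3-Parental libraries.

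Of the others, 2 are described here. In Aspscr1 a region at 120703770 had 263 and 155 counts in PB3-Parental and 752 and 701 in PB3-VIN-R (1.14 ± 0.23, edgeR adjusted p = 0.0364), and in PB3-ERI-R it was among the low ones, with 10 and 8. The only one called lower, at 114829543 and 20.5 kb from the orphan receptor gene Gprc5c, had 64 and 69 counts against 47 and 21 in the deeper PB3-VIN-R libraries (-1.64 ± 0.33, edgeR adjusted p = 0.0397). It was one of the high regions of PB3-ERI-R, with 2090 and 1174 counts. In PB3-PAC-R these 2 regions were at 0.61 and -0.79, and those at 111301386 and 112250785 were at 1.53 and 0.72, none of them called. The regions described thus had the same sign in PB3-PAC-R and PB3-VIN-R, which are compared with the same PB3-Parental libraries. PB3-ERI-R had the opposite sign at some of them, such as -1.72 at 111301386.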

How the data were processed

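The 8 ATAC-seq libraries were grouped by the cell line in their labels. Per the submitters' processing notes, the builds were GRCm38 and mm10, peaks came from MACS2 2.1.1 and alignment tools included Bowtie2 2.2.6, after trimming with cutadapt 1.9.1; featureCounts, Picard, deepTools and bcl2fastq 2.20.0.422 are also named. Their settings, not given in the sources used here, could change peak widths and counts. The authors deposited raw counts for each consensus region. They also deposited 1 peak list per line, with a score, a fold enrichment (a ratio over local background) and a -log10 q value for each peak, of which the fold enrichment was used. Other values deposited were the 0-based starts and ends of the consensus regions.

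All 57417 regions were fitted together with edgeR 4.0.16 in R 4.3.3 (filterByExpr, TMM scaling, quasi-likelihood, 1 term per line), which kept 57415, and p-values were adjusted over all of them (Benjamini-Hochberg, threshold 0.05). The same was done for 14936 gene loci, 536 windows of 5 Mb and 2441 of 1 Mb. The residual degrees of freedom were 4. The TMM factors of PB3-ERI-R were 0.8023 and 0.8584, below those of every other library (1.036 to 1.09). CPM use scaled library sizes. Each region went to its nearest protein-coding gene within 50 kb, out of 21896 in RefSeq (GRCm38.p6), without regard to strand, so nearby genes can share a promoter peak. Tested on simulated data for PB3-VIN-R with 57417 regions, the fit recovered 53% of 2-fold and 100% of 4-fold changes, with 5 false calls. The changes were placed only in regions above a count floor, and all regions shared a common spread. DESeq2 1.42.0 was an alternative.

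The members, gene lists and tests were chosen with earlier results of these data known. Named were fixed genes, from each list of the segment the 3 loci with the highest CPM and those with the highest and lowest PB3-ERI-R change, the 5 highest and 5 lowest regions of average log2 CPM of at least 2 (1 per gene), all calls in the other lines except 1 region not reported here, and the 3 regions on each side of 110 Mb. Further loci with stated values come from the same lists.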

Additional observations from a re-analysis of the deposited data

How the results depend on the processing

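In PB3-ERI-R the segment stood 1.12 above the flank in the median log2 difference. It was 0.90 with peaks of all 4 lines only, 1.03 near gene ends, 1.06 above a mean log2 CPM of 4, 1.18 with the segment starting 2 Mb later, 1.22 beside the other autosomes, 1.02 as the log2 ratio of summed counts and 1.01 with loess offsets. Leaving out 1 library gave 1.06 to 1.18. An alternative chosen after seeing the data, regions at RefSeq promoters relative to promoters of like GC content, gave 1.00, but covered few of the segment's regions. The GC check over all regions was not run, since no genome of the build was used here. In PB3-VIN-R the difference was 0.09 beside the other autosomes.

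The count of regions called in PB3-VIN-R was 6 and ran from 0 to 10 with 1 library left out, 2 with loess offsets, 8 with DESeq2, and 28 with the replicate number as a block. In PB3-PAC-R it was 0 in each of these, apart from 4 with the block. The labels share only a number: deviations of same-numbered libraries correlated at 0.073 to 0.446, and the block called no 5 Mb window in either line. All other alternatives kept each result on its side of the threshold, except 34 settings of the 6 regions called in PB3-VIN-R. No direction of a called result turned. Named loci of PB3-ERI-R under these alternatives were computed after seeing the data, and 10 moved by more than the spread of the libraries. In simulated data 53% of 2-fold and 100% of 4-fold changes were called at this depth, with 2 libraries per line. Changes in regions with few counts or a wider spread were not simulated, so these shares may be too high for them.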
